A study of Arabidopsis thaliana with 6 samples.

Results

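The genes described here are 79 protein-coding genes of Arabidopsis that the array's annotation knows only by a locus code, and whose signal lay higher in suspension cells after induction of an ATHB8 fusion. They were picked from 14743 such genes, each represented by the row whose mean over the 6 arrays was highest. A gene was kept when its uninduced mean was at least 5 on the log2 scale, its induced mean lay at least 0.8 higher, and its lowest induced value lay above its highest uninduced value. Of the 8033 genes that were open to the rule and had an uninduced mean of 5 or higher, 79 met it (0.983%). AT1G79620 and AT3G53190 met the same conditions and were left out by name. Since these genes were chosen by the difference between induced and uninduced arrays, their differences are given as a description, with no test.

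The 3 uninduced and 3 induced arrays hold RNA from dark-grown suspension cells, labelled Alex, that carry ATHB8 joined to green fluorescent protein (ATHB8-GFP) under estrogen control. Both groups carry the transgene. Induction was with 5 µM estrogen for 24 h, and the uninduced cells had 24 h without estrogen, so estrogen itself and the fusion protein cannot be told apart in this design. The labels do not say whether the replicates were separate cultures or separate lines, so the errors and p-values may reflect technical spread alone. An array carries 38408 rows, each with a log2 signal, and 16722 of them name a single gene. Of 22 marker genes for tracheary elements, phloem, procambium, photosynthetic and dividing cells, 0 have a row that names them alone. Rows that name more than 1 gene were not examined, so the state of the cells was not read from those markers. ATHB8 itself is among the 22, so no value of the induced gene was used here to check the labels. The replicate 1 arrays of both groups stand apart from the other 4: their median signal was 5.95, against 5.80 to 5.84, and they hold exactly the same value in 12229 rows (31.8%). None of the 79 genes is among those rows, which the rule itself ensures.

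ATHB8 is a transcription factor of the HD-ZIP III family, known from procambium, the precursor of both xylem and phloem. The walls of vascular cells hold polysaccharides such as cellulose and xylan. The formation of these cells is known to involve proteins that act on walls, carry solutes and relay signals at the membrane. A gene that carries only a locus code has had no symbol assigned in the annotation, which says nothing about whether its protein family is known. For 62 of the 79 genes the protein family is given below as general background on these loci, not as a result of the arrays. For the other 17 no role is given. Roles were assigned to the 79 genes alone, by hand. Whether any role is more common among them than among the 8033 genes open to the rule was not tested. RefSeq also lists all 79 as protein coding and gives none a symbol; among its synonyms, AT2G31110 carries the name TBL40.

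The starting level of these genes was moderate. Their uninduced means ran from 5.02 to 10.72 with a median of 6.39, and the median of all rows was 5.84. The level of 5 in the rule lies at percentile 40.8 of all rows, and 25 of the 79 genes had an uninduced mean at or below the median row. No detection call was analysed here, so for these 25 genes the word expressed rests on the rule's level alone. Their induced means ran from 6.12 to 11.63 with a median of 7.75. The differences ran from 0.80 to 2.53, or 1.74-fold to 5.78-fold, with a median of 1.15 (2.22-fold), where all 8033 genes at this level had a median difference of -0.02. The difference was at least 1 in 55 genes, at least 1.5 in 22 and at least 2 in 9. By starting level, the rule kept 2.0% of genes with an uninduced mean from 5 to 6, 1.69% from 6 to 7, 1.01% from 7 to 8 and 0.231% from 8 upward. The mirrored rule, with the same starting level, an induced mean at least 0.8 lower and no overlap, was met by 106 genes. In RNA from a whole culture, a change in the share of cells of a kind and a change in RNA per cell cannot be told apart.

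**Figure D1:**
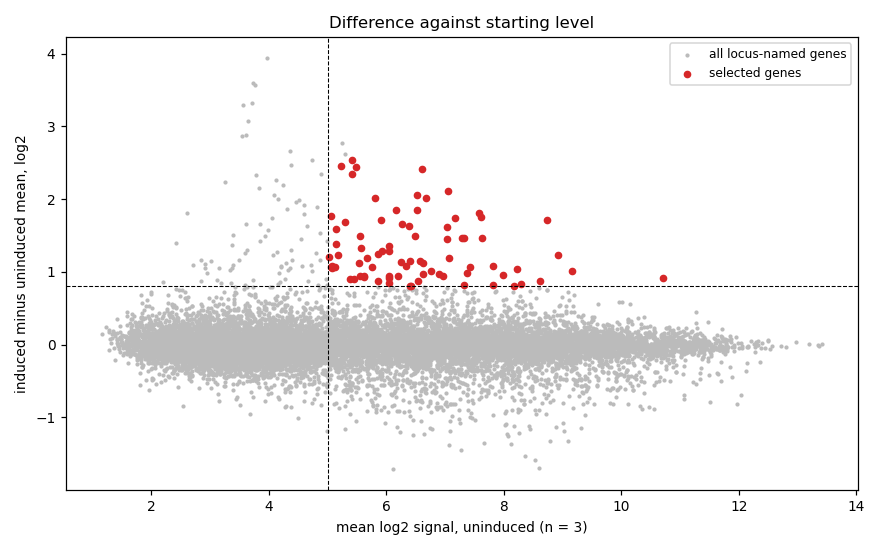
Difference between the induced and uninduced means (log2) against the uninduced mean (log2 signal, n = 3) for 14743 locus-named genes in grey and the 79 selected genes in red, with dashed lines at the level of 5 and the difference of 0.8. The selected genes thin out to the right, and 8 of them have an uninduced mean above 8.

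Genes linked to the cell wall and its polysaccharides made up 12 of the 79, with differences from 0.81 to 2.41 and a median of 1.72. AT2G31110 (TBL40) belongs to the TBL family, which includes acetyltransferases of wall polysaccharides. On the uninduced arrays 1, 2 and 3 it gave 6.54, 6.80 and 6.45, and on the induced arrays 8.67, 9.18 and 9.17. Its induced mean lay 2.41 ± 0.18 higher (SE of the limma fit, n = 3 per group, as after each ± below), a 5.31-fold difference, and the nearest induced and uninduced values were 1.87 apart.

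Of the pectin-related genes, AT2G43870 and AT3G15720 encode proteins of the polygalacturonase type, which cut the backbone of pectin. AT2G43870 gave 7.10, 6.80 and 7.25 uninduced and 9.29, 9.12 and 9.06 induced, a difference of 2.1 ± 0.15. AT3G15720 gave 6.47, 6.83 and 6.74 uninduced and 8.47, 8.84 and 8.76 induced, a difference of 2.02 ± 0.16. The same-numbered pairs of AT3G15720 differed by 2.01, 2.02 and 2.03, the closest match among the 3 pairs of any of the 79 genes. Replicates 2 and 3 correlated across the groups about as much with the other number as with the same one. Differences by pair are therefore a description, here and below. AT3G05910 encodes a pectin acetylesterase, which removes acetyl groups from pectin. It gave 7.70, 7.60 and 7.40 uninduced and 9.33, 9.45 and 9.36 induced, a difference of 1.81 ± 0.12, with the groups 1.62 apart at their nearest values.

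AT1G62760 and AT1G62770 are next to each other on chromosome 1 and both encode proteins of the invertase and pectin methylesterase inhibitor family. AT1G62760 gave 5.99, 6.02 and 6.50 uninduced and 7.75, 8.08 and 8.24 induced, a difference of 1.85 ± 0.20. AT1G62770 gave 6.91, 7.37 and 7.22 uninduced and 8.55, 9.14 and 9.0 induced, a difference of 1.73 ± 0.20. In both genes the replicate 1 array was the lowest of its group, with and without estrogen, and the groups stayed over 1 apart. The arrays' probes were not examined, so signal shared between such relatives was not tested.

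AT2G28315 encodes a carrier of UDP-xylose, the sugar donor for xylan. It gave 5.99, 5.75 and 6.0 uninduced and 7.63, 7.58 and 7.67 induced, a difference of 1.72 ± 0.12 (3.28-fold), and its induced values spanned less than its uninduced ones. AT2G43590, of the chitinase family, known for breaking down fungal walls, differed by 1.66 ± 0.13. AT3G47040 and AT3G47000, both of a family of wall glycosyl hydrolases and both on chromosome 3, differed by 0.97 ± 0.14 and 0.81 ± 0.12, and AT2G34060, a class III peroxidase, by 0.94 ± 0.22. AT4G19970, of a family of nucleotide-diphospho-sugar transferases, had the widest range of pair differences of the 79 genes. Its uninduced arrays gave 5.91, 6.10 and 6.11 and its induced arrays 6.51, 8.10 and 7.58, so that its pairs differed by 0.60, 1.99 and 1.47. The induced replicate 1 array lay closer to the uninduced arrays than to the other induced ones.

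**Figure D2:**
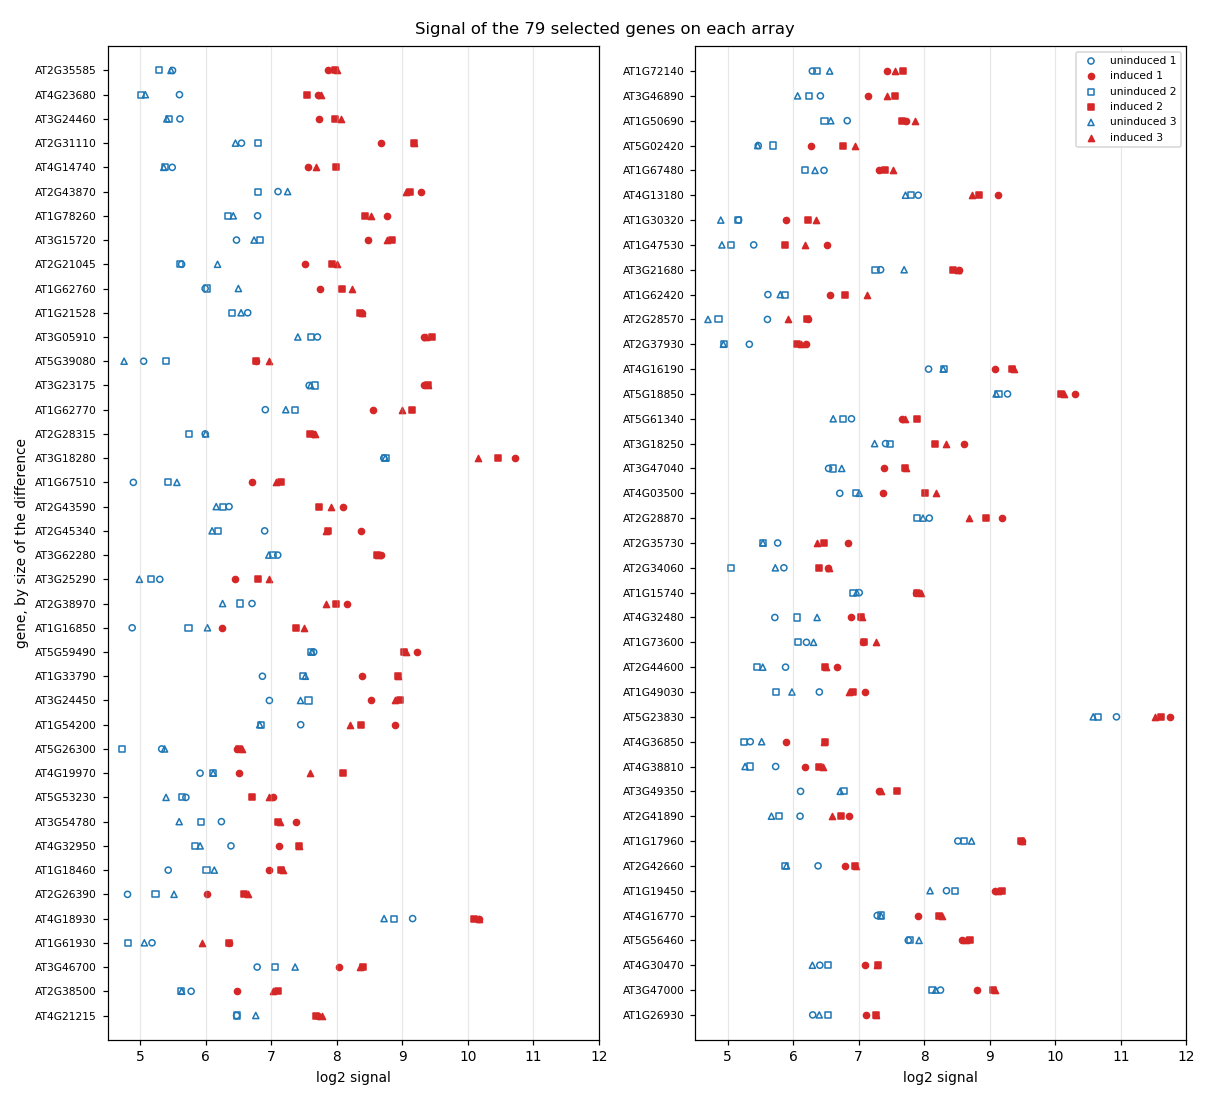
Log2 signal of each of the 79 genes on the 3 uninduced arrays (open blue) and the 3 induced arrays (filled red), with circles for replicate 1, squares for 2 and triangles for 3. Genes run from the largest difference, 2.53 for AT2G35585 at the top left, to the smallest, 0.80 for AT1G26930 at the bottom right.

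Signalling proteins made up 11 of the 79 genes, with differences from 0.82 to 2.34 and a median of 1.08. AT4G14740 belongs to the family of FORKED1, a protein known for its part in joining leaf veins. It gave 5.49, 5.38 and 5.36 uninduced and 7.56, 7.99 and 7.69 induced. The difference was 2.34 ± 0.14 (5.06-fold), and the groups lay 2.07 apart at their nearest values.

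AT1G67510 and AT2G45340 encode leucine-rich repeat receptor-like kinases, which sense signals at the cell surface. AT1G67510 gave 4.89, 5.42 and 5.56 uninduced and 6.70, 7.15 and 7.08 induced, a difference of 1.68 ± 0.22. AT2G45340 gave 6.90, 6.19 and 6.10 uninduced and 8.37, 7.86 and 7.83 induced, a difference of 1.63 ± 0.26. Their differences were alike in size, yet replicate 1 was the lowest array of each group for AT1G67510 and the highest for AT2G45340. The other kinases had smaller differences: 0.87 ± 0.15 for AT2G41890, a receptor-like kinase with a lectin domain, and 0.82 ± 0.11 for AT5G56460, a protein kinase.

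AT4G32950, a protein phosphatase of the PP2C family, which opposes kinases in stress and hormone signalling, gave 6.38, 5.83 and 5.91 uninduced and 7.12, 7.42 and 7.42 induced. Its difference was 1.28 ± 0.18 over all arrays and 1.55 without the replicate 1 arrays. AT5G02420 encodes a SIAMESE-related inhibitor of cyclin-dependent kinases, a family that holds back cell division. It gave 5.47, 5.69 and 5.46 uninduced and 6.27, 6.77 and 6.94 induced, a difference of 1.12 ± 0.20. The remaining signalling genes were AT1G30320, a remorin of the plasma membrane (1.08 ± 0.16), AT1G15740, a leucine-rich repeat protein (0.94 ± 0.10), AT4G38810, a calcium-binding EF-hand protein (0.90 ± 0.16), and AT3G49350, which belongs to the proteins that switch off Rab GTPases of vesicle traffic (0.88 ± 0.21).

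Transport and metal-binding proteins made up 6 of the genes, with differences from 0.83 to 1.46. AT3G24450, with a heavy-metal-associated domain, gave 6.97, 7.57 and 7.45 uninduced and 8.52, 8.96 and 8.88 induced, a difference of 1.46 ± 0.20. AT2G35730, with the same domain, differed by 0.94 ± 0.16. AT1G72140, of the NPF family of nitrate, peptide and hormone carriers, gave 6.29, 6.36 and 6.56 uninduced and 7.43, 7.67 and 7.55 induced, a difference of 1.15 ± 0.13. AT1G47530, an efflux carrier of the MATE family, differed by 1.07 ± 0.21, and AT4G36850, a membrane protein with PQ-loop repeats, by 0.91 ± 0.19. AT1G19450, a sugar carrier of the major facilitator superfamily, had one of the 6 highest starting levels of the set. It gave 8.34, 8.47 and 8.09 uninduced and 9.08, 9.18 and 9.12 induced, a difference of 0.83 ± 0.13.

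Proteins that bind or make lipids, or sit in membranes, made up 7 of the genes, with differences from 0.91 to 2.45 and a median of 1.61. AT4G23680 is related to major latex proteins, small proteins with a pocket for hydrophobic ligands. It gave 5.60, 5.01 and 5.08 uninduced and 7.72, 7.54 and 7.76 induced, a difference of 2.45 ± 0.18 (5.46-fold). AT3G24460, of the Serinc family of membrane proteins linked to serine and sphingolipids, gave 5.60, 5.44 and 5.40 uninduced and 7.73, 7.97 and 8.07 induced. Its difference was 2.44 ± 0.13, with the groups 2.13 apart. AT3G24460 is next to AT3G24450 on chromosome 3, and the 2 gene intervals do not overlap in RefSeq.

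AT3G18280, a small lipid transfer protein, gave 8.72, 8.74 and 8.74 uninduced and 10.72, 10.46 and 10.15 induced, a difference of 1.71 ± 0.16 (3.28-fold). Its uninduced arrays agreed to within 0.01 (SD), the least spread of any of the 79 genes, while its induced arrays had an SD of 0.29. AT5G23830, with the ML domain of lipid-recognition proteins, had the highest level of the set before and after induction. It gave 10.93, 10.65 and 10.58 uninduced and 11.75, 11.61 and 11.52 induced, a difference of 0.91 ± 0.14. AT3G62280, a GDSL-type esterase, differed by 1.61 ± 0.10, and AT1G18460, an alpha/beta hydrolase, by 1.25 ± 0.20. AT1G73600, a phosphoethanolamine methyltransferase on the route to phosphatidylcholine, differed by 0.94 ± 0.12.

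Enzymes of metabolism and redox proteins made up 8 genes, with differences from 0.81 to 2.01 and a median of 1.33. AT2G21045, a rhodanese-like protein known as an arsenate reductase, gave 5.63, 5.61 and 6.18 uninduced and 7.52, 7.93 and 8.01 induced, a difference of 2.01 ± 0.21. AT5G39080, an acyltransferase of the HXXXD type, starts close to the level of the rule. It gave 5.05, 5.39 and 4.75 uninduced and 6.76, 6.76 and 6.96 induced, a difference of 1.76 ± 0.18. AT3G25290, a DOMON-domain membrane protein of electron transfer, differed by 1.59 ± 0.17, and AT5G59490, a hydrolase of the haloacid dehalogenase type, by 1.47 ± 0.11. Smaller differences were found for AT3G46700, a UDP-glycosyltransferase (1.20 ± 0.19), AT4G13180, a short-chain dehydrogenase (1.08 ± 0.14), AT4G16770, an iron-dependent oxygenase (0.82 ± 0.13), and AT4G30470, with a Rossmann fold (0.81 ± 0.12).

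Proteins that act on RNA or on other proteins made up 10 genes, with differences from 0.80 to 2.06. AT1G78260, with an RNA recognition motif, gave 6.79, 6.34 and 6.42 uninduced and 8.77, 8.42 and 8.53 induced, a difference of 2.06 ± 0.17 (4.16-fold). AT4G18930, a cyclic phosphodiesterase that acts on a product of tRNA splicing, gave 9.16, 8.87 and 8.72 uninduced and 10.17, 10.09 and 10.18 induced, a difference of 1.23 ± 0.14. AT1G17960, of the threonyl-tRNA synthetase family, gave 8.51, 8.61 and 8.72 uninduced and 9.49, 9.47 and 9.49 induced, a difference of 0.87 ± 0.11. The induced arrays of AT1G17960 had an SD of 0.01, the least of any of the 79 genes on the induced side.

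Both RING-type zinc finger genes of the set, a class that includes ubiquitin ligases, differed by similar amounts, 1.50 ± 0.16 for AT2G38970 and 1.29 ± 0.19 for AT3G54780. Both kelch-repeat F-box genes, which pick targets for ubiquitin ligases, stood lower in the order, AT1G67480 at 1.09 ± 0.13 and AT1G26930 at 0.80 ± 0.12. AT4G16190, a papain-type cysteine protease, gave 8.07, 8.30 and 8.29 uninduced and 9.07, 9.34 and 9.37 induced, a difference of 1.04 ± 0.13. AT2G26390, a serpin, of a family of protease inhibitors, differed by 1.23 ± 0.25. AT2G42660 has a MYB-like fold known from DNA-binding proteins. It gave 6.38, 5.87 and 5.90 uninduced and 6.79, 6.94 and 6.96 induced, a difference of 0.85 ± 0.17 that rests mainly on replicates 2 and 3. Its replicate 1 pair differed by 0.41, the smallest pair difference of any of the 79 genes, and the other pairs by 1.07 and 1.06.

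Domain names without a settled role apply to 8 more genes, with differences from 0.91 to 1.76. AT3G23175, related to proteins that cause lesions resembling the hypersensitive response, gave 7.58, 7.67 and 7.60 uninduced and 9.34, 9.39 and 9.40 induced. Its difference was 1.76 ± 0.10 (3.38-fold), with little spread in either group. The others were AT1G33790, a jacalin lectin (1.46 ± 0.24), AT5G26300, a TRAF-like protein (1.38 ± 0.19), AT1G61930, with a domain of unknown function found in senescence regulators (1.20 ± 0.17), AT1G62420 and AT4G32480, which share another such domain (1.06 ± 0.17 and 0.94 ± 0.18), AT4G03500, an ankyrin repeat protein (0.96 ± 0.23), and AT1G49030, a PLAC8 protein (0.91 ± 0.19).

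The gene with the largest difference of all 79 is among the 17 for which no role is given. AT2G35585 gave 5.49, 5.28 and 5.47 uninduced and 7.86, 7.97 and 8.0 induced, a difference of 2.53 ± 0.11 (5.78-fold), with the groups 2.37 apart. AT1G21528 gave 6.64, 6.41 and 6.54 uninduced and 8.39, 8.35 and 8.38 induced, a difference of 1.84 ± 0.11. AT5G18850, the second highest in starting level, gave 9.27, 9.13 and 9.10 uninduced and 10.31, 10.08 and 10.13 induced, a difference of 1.0 ± 0.12. In these 3 genes the groups are far apart for the spread within them.

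AT1G16850 shows the opposite pattern, with a difference of 1.50 ± 0.43 and the narrowest separation of the set, 0.22 between its lowest induced and highest uninduced value. It gave 4.88, 5.73 and 6.02 uninduced and 6.25, 7.38 and 7.50 induced, so that the induced replicate 1 array lay just above the uninduced replicate 3 array. Its same-numbered pairs differed by 1.37, 1.64 and 1.47. AT1G54200 gave 7.45, 6.84 and 6.82 uninduced and 8.89, 8.38 and 8.20 induced, a difference of 1.45 ± 0.25, and there replicate 1 was the highest array of each group. The differences of the other 12 genes without a given role were 1.32 for AT5G53230, 1.19 for AT2G38500, 1.15 for AT4G21215, 1.13 for AT3G46890, 1.12 for AT1G50690, 1.07 for AT3G21680, 1.06 for AT2G28570, 1.05 for AT2G37930, 1.0 for AT5G61340, 0.99 for AT3G18250, 0.95 for AT2G28870 and 0.93 for AT2G44600.

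The separation between the groups was wider than the spread inside them for most of the genes. In 65 of the 79 the distance between the lowest induced and the highest uninduced value exceeded the range within each group, and in 14 it did not. That distance was over 1 in 25 genes, had a median of 0.78 and was 0.22 at the least. The rule favours such distances, since it requires separation and a difference of at least 0.8. They were not counted over the 8033 genes and are a description only. Of the 8033 genes at this level 663 had all induced arrays above all uninduced ones (8.25%), and the rule required this of the 79. A difference of at least 0.8 in every same-numbered pair was found in 52 of the 79, against 0.647% of the 8033 genes, a share to which the rule itself contributes. In limma 50 of the 79 had an adjusted p under 0.05, where 0.747% of the 8033 genes did so on the higher side; the rule used the same contrast, so this count is no separate evidence. The count was 33 when replicate number entered as a block. It was 23, 14 and 13 without induced replicate 1, 2 and 3 and 21, 13 and 9 without uninduced replicate 1, 2 and 3. The share called of all 16506 genes with a named row and a RefSeq entry, in either direction, fell too. It was 1.13% as reported and 0.733% with the block. Without induced replicate 1, 2 and 3 it was 0.497%, 0.212% and 0.23%. Without uninduced replicate 1, 2 and 3 it was 0.406%, 0.218% and 0.158%.

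The replicate 1 pair gave the smallest of the 3 pair differences in 46 of the genes, pair 2 in 12 and pair 3 in 21. These counts were not made over the 8033 genes at this level, so whether they are particular to the 79 was not tested. Of those 8033 genes, 25.9% had equal values in both replicate 1 arrays. The median difference of the 79 was 1.15 in pair 1, 1.23 in pair 2 and 1.27 in pair 3, and the lowest of any gene was 0.41, 0.69 and 0.62. Without the replicate 1 arrays the same rule kept 87 genes, of which 73 are among the 79. The 6 that left were AT1G26930, AT1G47530, AT1G61930, AT2G28570, AT2G37930 and AT3G49350.

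**Figure D3:**
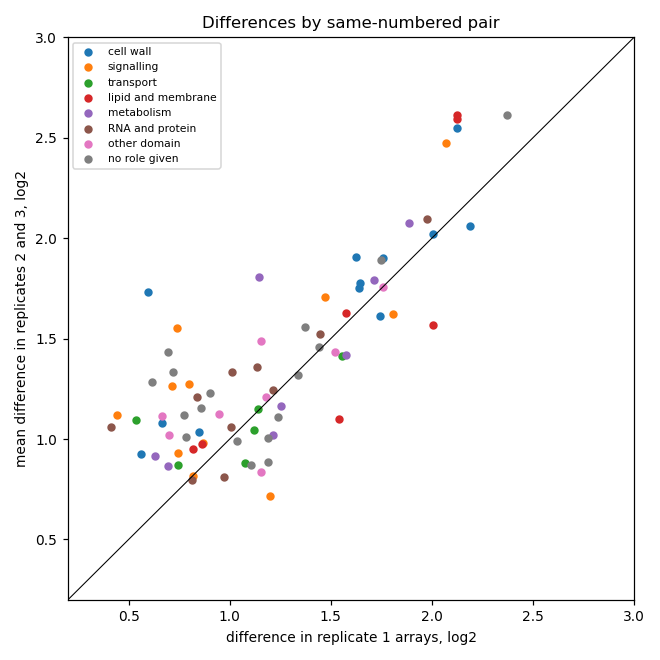
Mean difference in replicates 2 and 3 (y axis) and difference between the replicate 1 arrays (x axis), both log2, for each of the 79 genes, coloured by role, with a line of equality. AT4G19970 (0.60 in pair 1) and AT2G42660 (0.41), smaller in pair 1 than in the others, lie above the line, and AT3G15720 (2.01, 2.02 and 2.03) lies on it.

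Within each group, replicate 1 departed from replicates 2 and 3 in both directions. It was the lowest array of both groups in 22 of the 79 genes (27.8%) and the highest of both in 22 (27.8%). Over the 8033 genes at this level these shares were 25.9% and 38.7%, and 25.9% of those genes had equal values in both replicate 1 arrays, which the rule does not admit. Among the genes with replicate 1 at the bottom, AT1G16850 lay 1.19 below the mean of the other induced arrays and 1.0 below that of the other uninduced arrays, and AT1G67510 lay 0.41 and 0.60 below. Among those with replicate 1 at the top, AT2G45340 lay 0.52 and 0.76 above and AT1G54200 0.60 and 0.62 above. In these 4 genes the offset was shared by the induced and the uninduced array of the same number, and in AT4G19970 it was not, at 1.33 below the other induced arrays and 0.20 below the other uninduced ones.

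**Figure D4:**
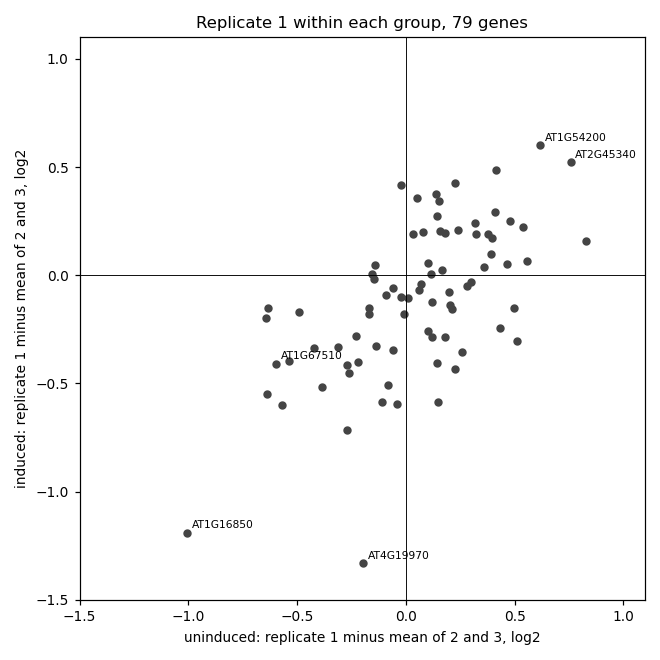
Replicate 1 minus the mean of replicates 2 and 3 (log2) in the uninduced group (x axis) and in the induced group (y axis), 1 point for each of the 79 genes. AT1G16850 lies at the lower left (-1.0 and -1.19), AT2G45340 at the upper right (0.76 and 0.52), and AT4G19970 at the bottom (-0.20 and -1.33).

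Close to the limits of the rule the values run on without a break. Just above a difference of 0.8 stood AT1G26930 (0.80), AT3G47000 (0.81) and AT4G30470 (0.81), and just below it AT2G18876 and AT4G22212 (both 0.79) and AT3G11600 (0.78). Just above the starting level of 5 stood AT1G61930 (5.02), AT2G28570 and AT5G39080 (both 5.06), and just below it AT1G64380 (4.99), AT1G56220 (4.98) and AT4G20320 (4.97). A single gene, AT1G72125, met the level and the difference (0.88) but not the separation. It gave 5.98, 5.11 and 5.19 uninduced and 6.70, 5.95 and 6.29 induced, so that induced replicate 2 lay 0.03 below uninduced replicate 1.

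Position on the chromosomes was not part of the rule. The locus codes put 22 of the 79 genes on chromosome 1, 18 on 2, 16 on 3, 14 on 4 and 9 on 5. Chromosome 5 holds 11.4% of the 79 and 23.6% of the 8033 genes at this level, and chromosome 2 holds 22.8% and 14.8%. Gene length in RefSeq had a median of 1980 bases, against 1872 over all locus-named genes. No coordinates are given, since the build behind the array's rows is not given in the sources used here. The pairs AT1G62760 with AT1G62770 and AT3G24450 with AT3G24460 were the 2 cases in which genes of the set adjoin in the RefSeq order.

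The nearest measured protein-coding gene on each side, itself outside the set, was then compared between the groups, which asks whether genes beside the 79 differed as well. The 79 genes have 158 such places, filled by 151 genes. They were taken by position, except that genes of the set were passed over, so no neighbour open to the rule can itself meet it. A neighbour with a symbol was not open to the rule and can meet its conditions on the values. GAMMA-VPE and DL1D, described below, do so. In limma 4 of the 151 rose and 0 fell at an adjusted p under 0.05, which is 2.65%. The share was 1.13% of all 16506 genes with a named row and a RefSeq entry, and 0.828% of the 16427 of them outside the set. With the replicate number as a block 1 of the 151 passed (0.662%), against 0.536% outside the set and 0.733% of all 16506 genes, a share near the background. With a block that separates replicate 1 from the others, chosen after seeing the data, 8 passed (5.3%, against 2.78% outside the set). At an unadjusted p under 0.05 in the limma fit without a block, 14 neighbours were higher (9.27%) and 5 lower (3.31%). The shares of the genes outside the set were 3.55% and 4.74%. Whether any of these shares differ was not tested. AT3G46880, beside AT3G46890, gave 3.70, 3.94 and 3.20 uninduced and 6.35, 6.77 and 6.38 induced, a rise of 2.88 ± 0.22 (limma adjusted p = 0.00671). AT1G21520, beside AT1G21528, gave 4.19, 4.94 and 4.42 uninduced and 6.42, 6.40 and 6.70 induced, a rise of 1.99 ± 0.22 (limma adjusted p = 0.0193). Both start below the level of 5 used for the 79 genes, and no background level was analysed here.

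The other 2 carry symbols on the array. GAMMA-VPE (AT4G32940), a vacuolar processing protease that lies beside AT4G32950, gave 9.12, 9.06 and 8.94 uninduced and 9.97, 9.86 and 9.87 induced, a rise of 0.86 ± 0.11 (limma adjusted p = 0.0293). DL1D (AT2G44590), of the dynamin-like proteins of membrane fission and beside AT2G44600, gave 5.18, 4.91 and 5.31 uninduced and 6.08, 6.25 and 6.04 induced, a rise of 0.99 ± 0.14 (limma adjusted p = 0.0441). In all 4 the groups did not overlap. With the replicate number as a block 1 of the 4 passed, AT3G46880 (limma adjusted p = 0.0294), and the others did not (0.0654 for AT1G21520, 0.0517 for GAMMA-VPE and 0.0986 for DL1D). Of the fits that left out 1 array, AT3G46880 passed in all 6 and AT1G21520 in 1, without uninduced replicate 2 (limma adjusted p from 0.0322 to 0.124). GAMMA-VPE (0.077 to 0.168) and DL1D (0.108 to 0.221) passed in 0 of them, although their differences stayed between 0.81 and 1.08. Quantile normalization ended the call of DL1D (limma adjusted p = 0.0537). Without both replicate 1 arrays 0 neighbours passed in limma, with 33 at an unadjusted p under 0.05 (21.9%, against 13.5% of the genes outside the set).

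With the 4 calls counted, 91 of the 151 neighbours (60.3%) had a higher induced mean, against 46.5% of the 16427 genes outside the set. The median difference of the neighbours was 0.05, against -0.01 for the genes outside the set. The 92 that directly follow or precede a gene of the set in the RefSeq order had a median of 0.07, with 60 of them higher, and they hold all 4 calls. The 63 that lie further off, with unmeasured genes or genes of the set between, had a median of 0.01, with 34 higher; a gene can stand in both groups. In 9 of the 158 places a neighbour's interval overlaps that of the gene beside it, and strand was not read, so signal shared between such genes was not tested.

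**Figure D5:**
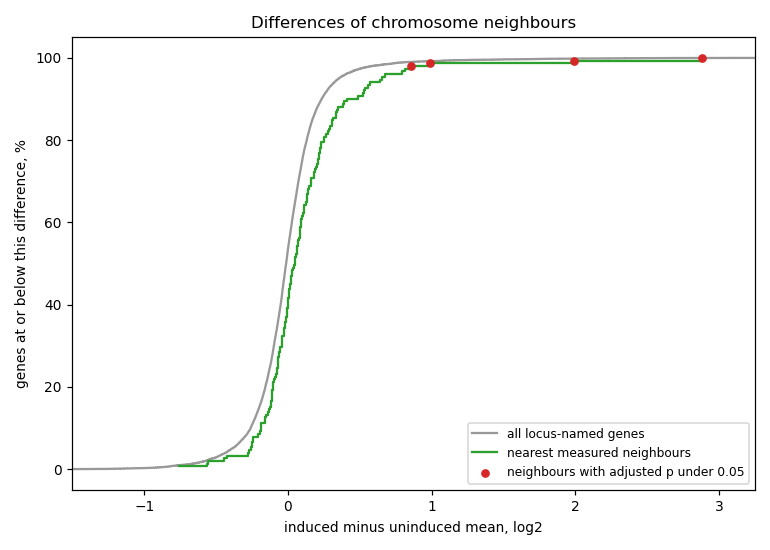
Share of genes (%) at or below each difference between induced and uninduced means (log2), for the 151 neighbours in green and all 14743 locus-named genes in grey, with red points for the 4 neighbours at an adjusted p under 0.05. The green curve lies to the right of the grey one over most of its length, and the red points run from 0.86 to 2.88.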

How the data were processed

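The authors deposited log2 expression for each row of a whole-transcript array, for which the submitters' processing notes name Affymetrix Expression Console 1.3; background correction, normalization and genome build are not given in the sources used here. Values were used as deposited. Rows were named by the array's own annotation and paired with RefSeq (assembly TAIR10.1) for symbols and gene order. The members, families and lists were chosen with earlier results of these data known. Genes given with all values are the 12 with the largest difference, the 6 with the highest uninduced mean and others picked after their values were seen.

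The groups were set against each other in limma 3.58.1 (R 4.3.3; lmFit, eBayes, two-sided, no filter, Benjamini-Hochberg over 38408 rows, threshold 0.05). A check on simulated data required the estimated differences to be close to the true ones and set no limit on false calls. An exact permutation test of 3 arrays against 3 cannot go below p = 0.10. Arrays with the same number deviated together from the group means, with correlations of 0.633, 0.268 and 0.248 across rows, all over 0.1, so a fit blocked on replicate number stands beside counts that it moves; cross-numbered pairs of replicates 2 and 3 gave 0.244 and 0.260, so only replicate 1 is set apart. The number of arrays limits precision. No sequences are shown, and comparisons by protein or promoter sequence were not made. Figures used matplotlib 3.10.9.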

Additional observations from a re-analysis of the deposited data

How the results depend on the processing

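The count of 79 genes stayed within 1.5 times under each other normalization, with rows averaged per gene, without each array in turn (78 to 93) and without both replicate 1 arrays, and it was 145 when a difference of 0.6 sufficed. Leaving out an array kept from 70 (uninduced replicate 1) to 79 (induced replicate 1) of the 79 genes. Of 790 differences recomputed under 10 settings 7 moved by more than 1 SD (pooled within groups), all upward when both replicate 1 arrays were left out. Leaving out 1 of 3 arrays cannot move a difference by more than 1 such SD. No gene of the set has more than 1 row, so averaging rows moves none. Those settings were therefore bound to leave the differences in place by this measure. The rule keeps the groups apart, so no difference can change sign when arrays are left out. Of the 79 genes, limma called 50 as reported, 33 with the replicate number as a block, 9 to 23 without 1 array, 12 without both replicate 1 arrays, 66 over rows at or above the median signal, 66 with a variance trend and 72 with a block that separates replicate 1 from the others. The same counts over all 14743 locus-named genes cover any starting level and either direction. There limma called 156 as reported, 105 blocked on replicate number, and 71, 32 and 34 without induced replicate 1, 2 and 3. It called 57, 32 and 23 without uninduced replicate 1, 2 and 3 and 31 without both replicate 1 arrays. Over rows at or above the median signal limma called 349, with a variance trend 315 and with the block for replicate 1 454. Of the 151 neighbours it called 4 as reported (2.65%, against 0.828% of genes outside the set), 1 with the replicate number as a block (0.662% against 0.536%), 1 to 2 without 1 array (0.662% to 1.32% against 0.103% to 0.359%), 0 without both replicate 1 arrays (against 0.164%; 33 at an unadjusted p under 0.05) and 8 with the block for replicate 1 (5.3% against 2.78%). Leaving out both replicate 1 arrays and the block for replicate 1 were chosen after seeing the data. Leaving out arrays and adding a block both leave fewer degrees of freedom. What caused these shifts was not tested. The comparison of close relatives by protein and the search of promoters for motifs were planned and not run, for want of sequences here.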
